A study of Mus musculus with 6 samples.

Results

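The transcripts of 7 regulators of mRNA translation were examined in oligodendrocyte lineage cells of the mouse brain: the cytoplasmic polyadenylation element binding proteins *Cpeb1*, *Cpeb2*, *Cpeb3* and *Cpeb4*, and the fragile X family *Fmr1*, *Fxr1* and *Fxr2*. They were chosen by name, as the rows with these symbols among the 55492 genes of the expression table, and all 7 passed the filter on expression that left 15245 genes for testing. The study compared wild-type (WT) mice with Npc1-/- mice, which lack the lysosomal cholesterol transporter NPC1. Untreated cells were purified from brains at postnatal day 16 with magnetic beads against O4, a surface antigen of late oligodendrocyte progenitors (OPCs) and immature oligodendrocytes. There were 3 WT and 3 Npc1-/- libraries, each of poly(A) RNA from a single mouse. The mutants were homozygous for the nih allele of *Npc1* and were F1 hybrids of BALB/cJ and C57BL6/J carriers, so every cell of the animal lacked NPC1, not the O4-positive cells alone.

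CPEB proteins bind a short U-rich motif, the cytoplasmic polyadenylation element (CPE), in the 3′ untranslated region (3′ UTR) of their target mRNAs. They keep these mRNAs silent with short poly(A) tails and, on a signal, let the tails be extended and translation begin. CPEB1 is the founding member, and CPEB2, CPEB3 and CPEB4 form a closely related subgroup. *Fmr1* encodes FMRP, the protein lost in fragile X syndrome, which binds mRNAs in dendrites and glial processes and mostly holds back their translation. FXR1 and FXR2 are its autosomal relatives. Such control matters to oligodendrocytes because the mRNA of myelin basic protein is carried into the processes and translated there. The values below are amounts of mRNA and give no measure of protein or of translation.

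The *Cpeb1* promoter is shown first because it is the member with the largest difference between genotypes, and that of *Cpeb4* because it is a member of the same family whose mRNA differed little. Both are the 250 bases upstream of the RefSeq transcription start site on build GRCm38.p6, written 5′ to 3′ on the strand of the gene, with every CpG dinucleotide in capitals. The *Cpeb1* stretch is chr7:81454759-81455008 on the minus strand and that of *Cpeb4* is chr11:31870690-31870939 on the plus strand. These starts differ from the gene spans given below. The *Cpeb1* stretch lies inside the span of its gene, and that of *Cpeb4* ends before its gene begins. Which start the cells use was not tested.
*Cpeb1*: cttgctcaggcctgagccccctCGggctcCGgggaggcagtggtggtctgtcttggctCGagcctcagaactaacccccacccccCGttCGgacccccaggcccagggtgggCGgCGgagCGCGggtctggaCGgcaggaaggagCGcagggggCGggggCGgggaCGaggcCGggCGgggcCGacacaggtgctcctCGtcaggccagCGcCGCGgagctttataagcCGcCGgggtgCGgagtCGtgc
*Cpeb4*: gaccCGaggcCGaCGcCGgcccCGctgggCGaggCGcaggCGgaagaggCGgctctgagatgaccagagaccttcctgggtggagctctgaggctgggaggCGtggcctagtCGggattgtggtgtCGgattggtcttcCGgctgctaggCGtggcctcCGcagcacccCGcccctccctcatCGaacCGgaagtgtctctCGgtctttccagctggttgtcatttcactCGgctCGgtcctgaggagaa

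Both promoters are rich in CpG, with 25 of these dinucleotides in the *Cpeb1* stretch and 21 in that of *Cpeb4*. Over the full window of 300 bases, which adds the first 50 transcribed bases, *Cpeb1* had 33 CpG and a GC content of 72.7%. A window with at least as many CpG was found for 8.56% of the 32841 windows in the table, whose median was 7 CpG. Of the 7 genes, 6 had a window, and each of these windows held more CpG than that median. Their windows held from 24 CpG in *Fmr1* to 43 in *Fxr1*, so a CpG-rich start did not set *Cpeb1* apart from its relatives. *Cpeb2* had no window in the table.

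The CPEB genes themselves carry the motif that their proteins bind. Searched as TTTTAT or TTTTAAT on the mRNA strand of the coding transcript with the longest 3′ UTR in GENCODE M21, the CPE occurred 4 times in *Cpeb1*, 24 times in *Cpeb2*, 6 times in *Cpeb3* and 17 times in *Cpeb4*. It occurred 4 times in *Fmr1*, once in *Fxr1* and not in *Fxr2*. In the 4 *Cpeb* genes the motif was denser than usual, at 3.04, 6.35, 1.68 and 4.14 per kilobase in *Cpeb1* to *Cpeb4*, against a median of 0.819 over 13439 tested genes with a 3′ UTR. Shares of these genes at least as dense were 10.7%, 1.79%, 28.9% and 5.44%. This was not a trait of the *Cpeb* genes alone. *Fmr1*, at 1.75 per kilobase (27.5% of genes at least as dense), was denser than *Cpeb3*. *Fxr1* had 0.72 per kilobase and *Fxr2* had 0. A motif anywhere in the 3′ UTR was found in 62.6% of the tested genes, so its presence alone is common. The 4 sites of *Cpeb1*, the gene that stands out below, are given in order from the stop codon. With them is the site of *Fmr1* that lies within the last 100 bases, where a CPE is usually placed. A motif in that stretch was found in 18.9% of the genes. None of the 4 *Cpeb* genes had a motif there, and *Fmr1* was the only member that did. The motif is in capitals and T stands for U. A match is a run of letters and was not tested for binding.
*Cpeb1* site 1: aaaaattaTTTTATttaaaact
*Cpeb1* site 2: atagaagtTTTTAATcacagtca
*Cpeb1* site 3: cttacaacTTTTATttgacgaa
*Cpeb1* site 4: acttttctTTTTAATttaacgat
*Fmr1* terminal site: atgtaaatTTTTATtaaaaagt

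Depth, estimated from the spacing of low FPKM values, was about 40500000 to 50250000 fragments a library. *Npc1* was at 45.5 to 53.3 TPM (a length-corrected share of the transcripts) in WT and at 3.16 to 4.42 TPM in Npc1-/- mice, as labelled. The oligodendrocyte lineage markers were abundant: the 12 genes listed, among them *Olig2*, *Sox10* and *Mbp*, had no member at 0 in either genotype, and none passed the test between genotypes (1 of 12 had an unadjusted p below 0.05). *Mbp* (0.57) and *Mag* (0.42) had the highest log2 fold changes of the list, and *Gpr17* (−0.22) and *Cspg4* (−0.16) the lowest. *Mbp* alone ranged from 187935 TPM in WT replicate 1 to 261247 TPM in Npc1-/- replicate 3. To put the libraries on a common scale, each sample was given a size factor, its median ratio to the mean profile. The TPM values of the sample were then divided by it. Why the size factors differed between samples was not tested. Size factors were 1.04 or more in WT and from 0.727 to 1.10 in Npc1-/- mice, and the result is called scaled TPM. Npc1-/- replicate 3 had the lowest size factor and was the only library with *Xist* above 0.01 TPM (15.6 TPM) and with the Y-linked *Ddx3y* at 0. Genes were tested with limma on log2(scaled TPM + 0.5), a scale that understates differences of weakly expressed genes. A gene was called at an adjusted p (Benjamini-Hochberg over all genes tested) below 0.05 if its log2 fold change was also 0.1 or more in either direction, and fold changes are Npc1-/- relative to WT.

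None of the 7 genes was called by limma, against a background of 0.813% of all genes tested (124 genes, 0.400% higher and 0.413% lower). *Cpeb1* came closest, with the largest difference of the 7 and an adjusted p just above the limit. At an unadjusted p below 0.05 it was 1 of 7, against a background of 22.2%. It was also the only one whose groups did not overlap, again 1 of 7, against 27.5% of all genes (13.3% with Npc1-/- above WT). *Fxr1* followed with a smaller and less even difference, and the other 5 genes lay within a log2 difference of 0.29 of WT. The split of the calls over all genes, 61 higher and 63 lower, depended on scaling: 54 higher and 870 lower on TPM as deposited, and 73 and 119 with size factors taken from well expressed genes.

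**Figure D1:**
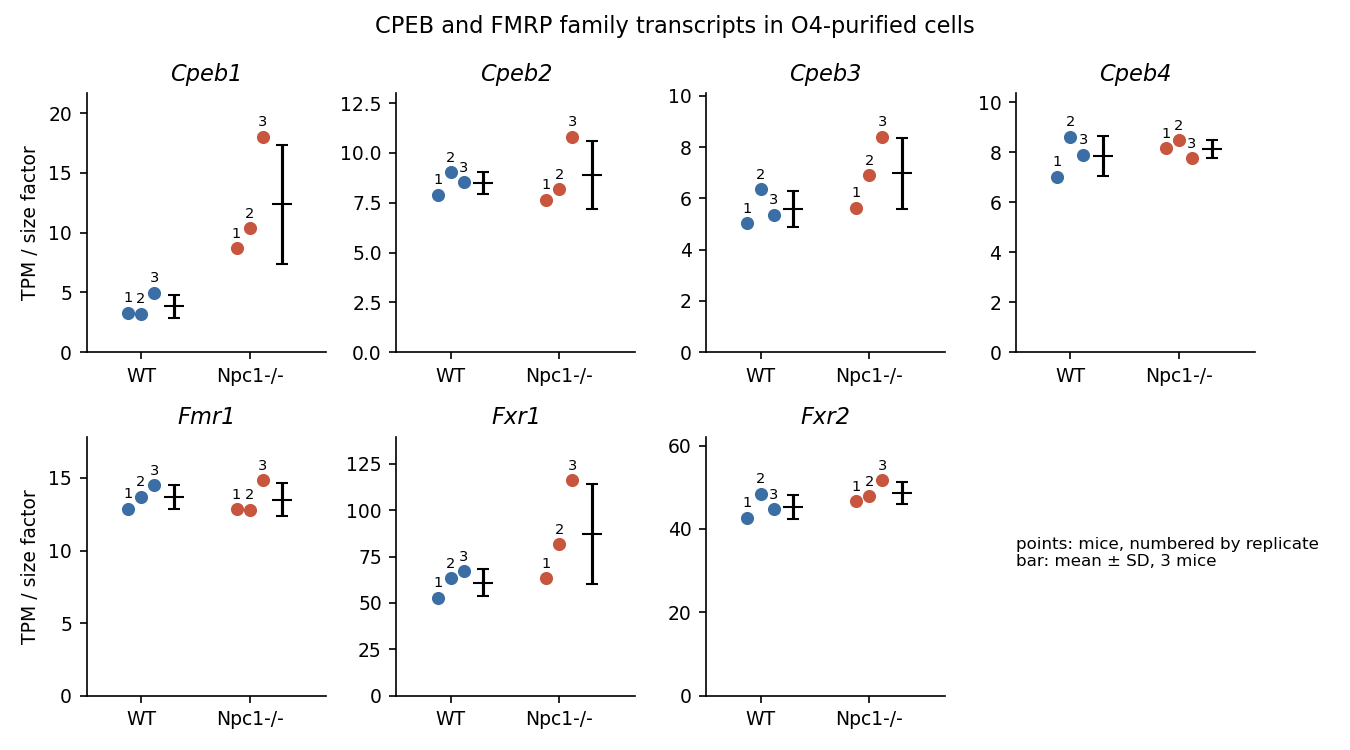
Scaled TPM (TPM divided by the size factor of the sample, linear axes from 0) of each gene in the 3 WT (blue) and 3 Npc1-/- mice (red), numbered by replicate, with the mean ± SD of 3 mice beside them. The *Cpeb1* points of Npc1-/- mice, from 8.68 to 18.0, all lie above the WT points, while in the other 6 genes the groups overlap.

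*Cpeb1* (ENSMUSG00000025586), the founding CPE binder, spans 81347026 to 81455465 of chromosome 7 (GRCm38, minus strand). Scaled values were 3.30, 3.23 and 4.97 in WT replicates 1, 2 and 3. The mutant replicates 1, 2 and 3 had 8.68, 10.4 and 18.0. Each mutant mouse lay above every WT mouse, and replicate 3 was the highest of its genotype in both groups. The WT mean was 3.83 ± 0.986 (SD, n = 3), and that of the mutants, 12.4 ± 4.99 (SD, n = 3), was 3.23 times as high. The log2 fold change was 1.53 (standard error 0.28, 95% interval 0.87 to 2.18), with an adjusted p of 0.0546 by limma, so it did not pass. Only 0.276% of the genes tested had a log2 fold change as high. *Cpeb1* is a gene that the study itself singled out, from its RNA-seq together with histone marks at promoters of O4-purified cells. Its difference here is therefore not independent evidence. The study shows *Cpeb1* among neuronal genes that it reports as upregulated in Npc1-/- O4-purified cells, with less of a repressive histone mark at their promoters. By PCR it reports that several such genes fell in cultured Npc1-/- OPCs given a histone demethylase inhibitor. It also reports their rescue in O4-purified cells of mice given a cholesterol-mobilizing drug, and lists a probe for *Cpeb1*. Those measurements were not examined here.

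How firmly *Cpeb1* is called depended on the mice and on the scaling, while its direction was the same under every alternative run. Without Npc1-/- replicate 3, the highest mouse, its log2 fold change of 1.23 passed (limma, adjusted p = 0.0418). When any other mouse was left out, log2 fold changes lay between 1.43 and 1.74 and did not pass (limma, adjusted p from 0.0676 to 0.198). In the TPM as deposited, without size factors, *Cpeb1* was at 4.27, 3.57 and 5.16 in WT and at 9.56, 8.87 and 13.1 in Npc1-/- mice. There it stood at a log2 fold change of 1.18 and passed (limma, adjusted p = 0.0194). All genes together shifted by a median of −0.33 on that scale, which puts *Cpeb1* at 1.51 relative to the median gene. At the depths found, and if all reads came from the longest transcript of 3111 bases, these values stand for about 277 to 456 fragments in WT and 829 to 1357 in Npc1-/- libraries, so counting error was small beside the spread between mice. The processed pseudogene *Rpl7a-ps9* overlaps *Cpeb1* on the other strand and did not exceed 0.07 TPM in any sample.

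The other CPEB genes showed no such separation. *Cpeb2* (ENSMUSG00000039782, chromosome 5, 43233170 to 43289724, plus strand) had 7.90, 9.04 and 8.53 scaled TPM in WT, against 7.64, 8.16 and 10.8 in the mutants. The mutant mice lay on both sides of the WT mice, and the log2 fold change was 0.05 (95% interval −0.29 to 0.38, adjusted p = 0.887 by limma). *Cpeb3* (ENSMUSG00000039652, chromosome 19, 37021291 to 37208601, minus strand), known for restraining the mRNAs of AMPA receptor subunits, had 5.04, 6.35 and 5.36 in WT and 5.63, 6.90 and 8.41 in Npc1-/- mice. Only WT replicate 2 lay above the lowest mutant mouse, and the log2 fold change was 0.29 (95% interval −0.09 to 0.67, adjusted p = 0.356 by limma). It was 0.15 without Npc1-/- replicate 3 and 0.42 without Npc1-/- replicate 1, and passed in neither case. *Cpeb4* (ENSMUSG00000020300, chromosome 11, 31872211 to 31935634, plus strand) had 7.02, 8.63 and 7.92 in WT and 8.18, 8.48 and 7.78 in Npc1-/- mice. All mutant values fell inside the WT range, with a log2 fold change of 0.05 (95% interval −0.20 to 0.31, adjusted p = 0.826 by limma). Without size factors these 3 genes had log2 fold changes of −0.31, −0.06 and −0.30, which stand at 0.02, 0.27 and 0.03 from the median gene. *Marchf5*, at 19.3 to 37.7 TPM, overlaps *Cpeb3* on the other strand, and since the use of strand in the counting is not given in the sources used here, reads of the overlap may be shared.

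The intervals bound what was seen rather than show that nothing differed. In this fit the 95% interval of *Cpeb4* ran from −0.20 to 0.31, whereas that of *Cpeb3* reached 0.67. These bounds hold for this fit only. With a correction for transcript length the log2 fold change of *Cpeb4* was 0.16 (standard error 0.12). The lowest value inside the *Cpeb1* interval, 0.87, is above the upper ends of the other 3 *Cpeb* genes.

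**Figure D2:**
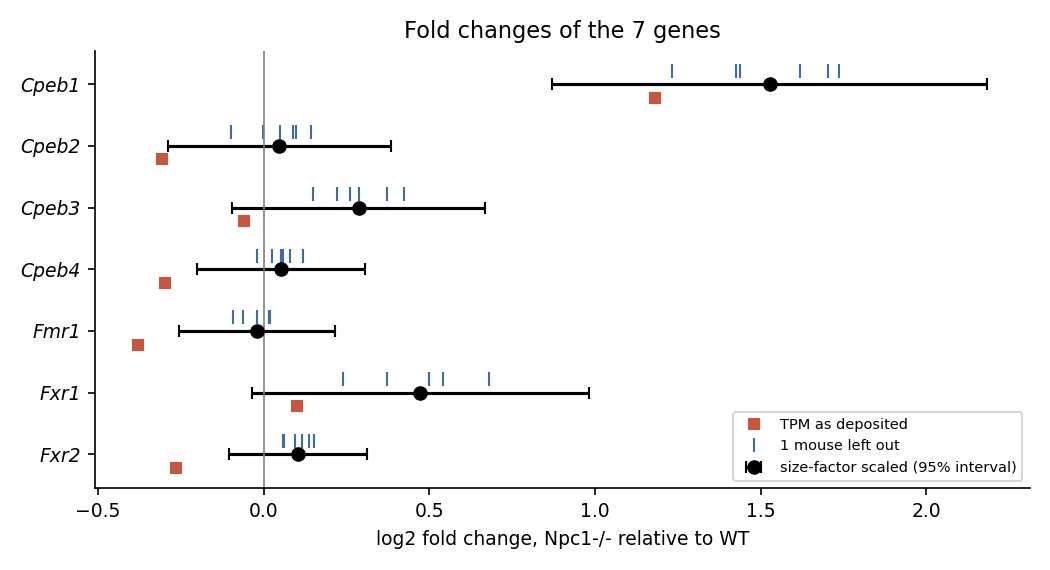
Log2 fold change of Npc1-/- relative to WT for each gene on scaled TPM (black points, bars are 95% intervals by limma), on TPM as deposited (red squares) and with 1 mouse left out (blue ticks). The marks of *Cpeb1* all lie at 1.18 or higher. Those of *Cpeb2*, *Cpeb3*, *Cpeb4*, *Fmr1* and *Fxr2* lie on both sides of 0. On TPM as deposited these genes had values of −0.31, −0.06, −0.30, −0.38 and −0.27.

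The make-up of the CPEB family does not depend on how samples are scaled, because each share is taken within a sample. In WT mice *Cpeb1* was the smallest part, with 14.2%, 11.8% and 18.6% of the summed TPM of *Cpeb1* to *Cpeb4*. In Npc1-/- replicates 1, 2 and 3 it was 28.8%, 30.6% and 40.1%, the largest part in each mutant mouse. WT mice had a mean share of 14.9% ± 3.41 (SD, n = 3) and the mutants one of 33.1% ± 6.05 (SD, n = 3). The difference of 18.3 percentage points exceeded the SD of either group, and it was between 14.8 and 20.5 points with any 1 mouse left out. *Cpeb2* made up 31.9% to 34.0% in WT and 24.0% to 25.4% in Npc1-/- mice. The shares of *Cpeb4* were 29.6% to 31.7% and 17.3% to 27.1%, and *Cpeb3*, whose groups overlapped, had means of 21.7% ± 1.64 and 19.2% ± 0.965 (SD, n = 3 each). The shares of *Cpeb2* and *Cpeb4* were smaller while their scaled TPM was not, since the family sum was 23.3 to 27.2 in WT and 30.1 to 45.0 in Npc1-/- mice. Shares are given as a description without a test.

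**Figure D3:**
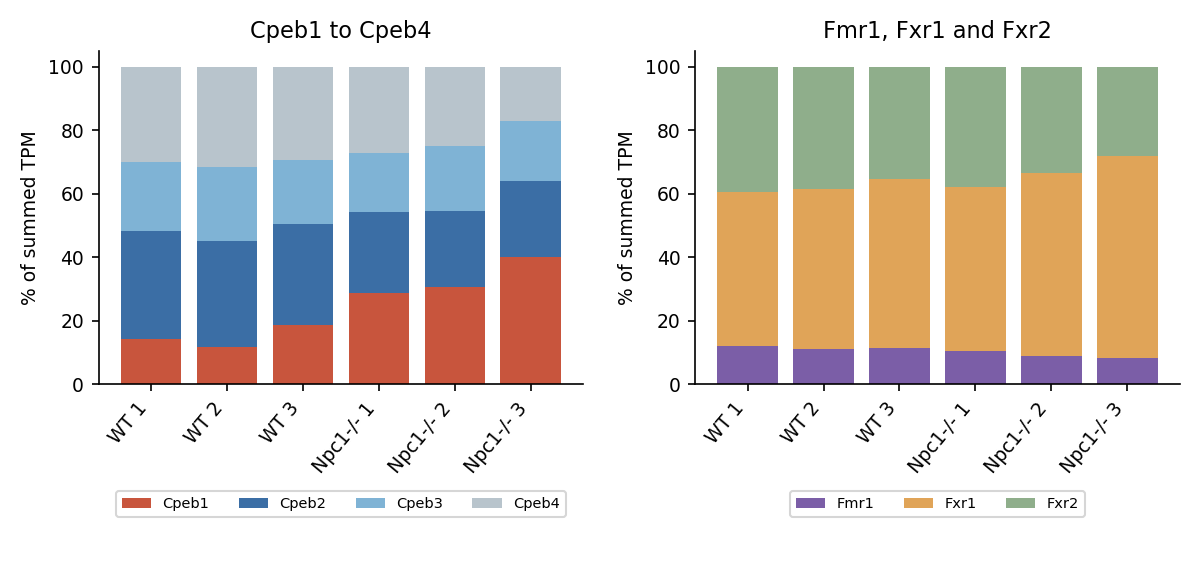
Percent of the summed TPM of each family that each member made up, for the 6 mice (bars from 0 to 100%). The *Cpeb1* part (red, bottom of the left panel) was 11.8% to 18.6% in WT and 28.8% to 40.1% in Npc1-/- mice, and *Fxr1* (orange, right panel) was the largest part of its family in every mouse.

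In the fragile X family no gene separated the genotypes. *Fmr1* (ENSMUSG00000000838, chromosome X, 68678541 to 68717963, plus strand) had a scaled TPM of 12.9, 13.7 and 14.5 in WT. In Npc1-/- replicates 1, 2 and 3 it had 12.9, 12.8 and 14.8. The groups overlapped almost fully, and the log2 fold change was −0.02 (95% interval −0.25 to 0.21, adjusted p = 0.933 by limma). The gene is X-linked and Npc1-/- replicate 3, the library with *Xist* at 15.6 TPM, was its highest sample; without that mouse the log2 fold change was −0.09 (adjusted p = 0.627 by limma). Without size factors it was −0.38.

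*Fxr1* (ENSMUSG00000027680, chromosome 3, 34019943 to 34070322, plus strand) was the most abundant of the 7. Its scaled TPM was 52.8, 63.2 and 67.1 in WT and 63.4, 81.6 and 116 in Npc1-/- mice. Mutant replicate 1 lay inside the WT range, and replicates 2 and 3 lay above it. The log2 fold change was 0.47 (standard error 0.22, 95% interval −0.04 to 0.98, adjusted p = 0.254 by limma). A difference this high or higher was found in 7.47% of the genes tested. The value rested on scaling: as deposited, *Fxr1* had 68.3, 70.0 and 69.7 TPM in WT and 69.9, 69.7 and 84.5 TPM in Npc1-/- mice, nearly the same in all libraries but Npc1-/- replicate 3. That gives a log2 fold change of 0.10, or 0.43 relative to the median gene, and without Npc1-/- replicate 3 the log2 fold change on scaled TPM was 0.24. *Dnajc19* and *Gm43667* overlap *Fxr1* on the other strand, with log2 fold changes of 0.36 and 0.22 that did not pass (adjusted p = 0.0782 and 0.468 by limma).

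*Fxr2* (ENSMUSG00000018765, chromosome 11, 69632990 to 69653297, plus strand) had 42.7, 48.5 and 44.8 in WT and 46.6, 47.8 and 51.7 in Npc1-/- mice. WT replicate 2 lay above 2 of the 3 mutant mice, and the log2 fold change was 0.10 (95% interval −0.10 to 0.31, adjusted p = 0.548 by limma), or −0.27 on TPM as deposited. With 1 mouse left out it ranged from 0.057 (without Npc1-/- replicate 3) to 0.15 (without WT replicate 2). Within the family, *Fxr1* made up 48.7% to 53.1% of the TPM in WT and 51.6% to 63.6% in Npc1-/- mice. The share of *Fmr1* was 10.9% to 11.9% in WT and 8.12% to 10.5% in Npc1-/- mice, which do not overlap although the level of *Fmr1* did.

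On scaled TPM, which is per transcript length and so allows levels of different genes to be ranked, the order in WT ran from *Cpeb1* over *Cpeb3*, *Cpeb4*, *Cpeb2*, *Fmr1* and *Fxr2* to *Fxr1*. Only the neighbours *Cpeb4* and *Cpeb2* had overlapping ranges there. In Npc1-/- mice *Cpeb3* was lowest, and *Cpeb3*, *Cpeb4* and *Cpeb2* overlapped in turn. *Cpeb1* had moved up between *Cpeb2* and *Fmr1* and its range overlapped both. *Fmr1*, *Fxr2* and *Fxr1* kept their places. *Fxr1* and *Fxr2* exceeded 92.2% and 87.8% of the genes tested by mean TPM or equalled them, and the *Cpeb* genes stood between 44.7% and 52.8%.

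The cells under study are O4-purified, yet RNA of other brain cells was present in every library, and *Cpeb1* is a gene that neurons express. In bulk RNA a larger number of cells of a type and more RNA per cell cannot be told apart. The summed scaled TPM of 8 Purkinje cell markers was 332 to 374 in WT and 937 to 1110 in Npc1-/- mice. Of them 4 were called higher, namely *Pcp4* (log2 fold change 1.62), *Pvalb* (1.62), *Pcp2* (1.60) and *Car8* (1.24), whereas *Itpr1* (−0.72) was the lowest and did not pass. The sum of 12 pan-neuronal markers was 259 to 299 in WT and 354 to 404 in Npc1-/- mice, with *Nefl* (1.22) and *Nefm* (1.11) called higher and *Syt1* (0.06) and *Elavl3* (0.19) lowest. For 8 markers of excitatory and inhibitory neurons the ranges overlapped, at 60.6 to 114 and 58.0 to 118, and none passed or had an unadjusted p below 0.05, from *Sst* (0.46) and *Slc32a1* (0.26) to *Gad2* (−0.0023) and *Camk2a* (−0.28). No marker of these lists was at 0 in a group. Thus *Cpeb1* differed in the same direction as the Purkinje cell and pan-neuronal markers, and their part in its difference was not tested. Microglial markers summed to 138 to 222 in WT and 61.2 to 113 in Npc1-/- mice, and 1 of 6 was called lower (*Tmem119*, −1.44), followed by *Csf1r* (−1.30), with *C1qa* (−0.78) and *Aif1* (−0.0070) the highest. Of the others, 0 of 6 astrocyte and 0 of 4 endothelial markers were called by limma, although 4 and 4 of them had an unadjusted p below 0.05. Astrocyte markers ranged from *Gfap* (1.01) and *Aldh1l1* (−0.23) to *Slc1a2* (−0.79) and *Gja1* (−0.81), and endothelial ones from *Cldn5* (−0.54) and *Kdr* (−0.81) to *Pecam1* (−0.83) and *Flt1* (−0.997).

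**Figure D4:**
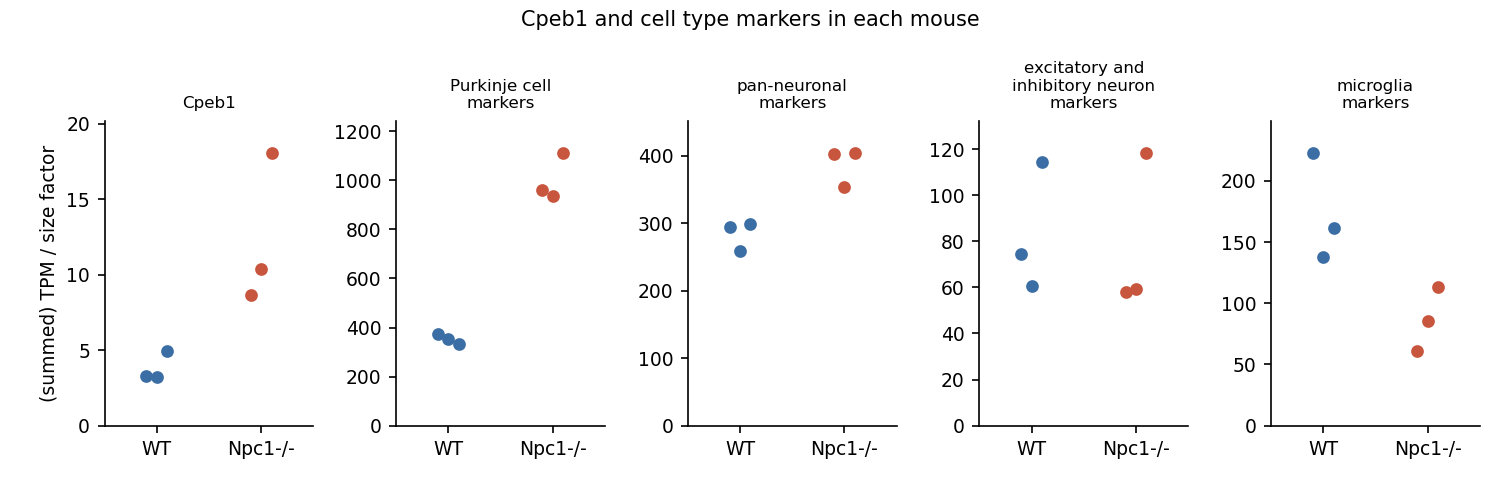
Scaled TPM of *Cpeb1* and the summed scaled TPM of 4 marker lists in 3 WT (blue) and 3 Npc1-/- mice (red), on linear axes from 0. *Cpeb1*, Purkinje cell and pan-neuronal markers are higher in every Npc1-/- mouse, microglial markers are lower in every one, and markers of excitatory and inhibitory neurons overlap.

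The genes whose log2 values followed *Cpeb1* most closely over the 6 samples were *Sort1*, *Fkbp1b*, *Ppp2r5b*, *Gng13* and *Ctnnb1*, with Pearson correlations of 0.999, 0.997, 0.997, 0.996 and 0.995. These correlations describe 6 points from 2 genotypes and therefore mostly follow genotype. *Gng13*, a G protein gamma subunit, had a scaled TPM of 67.6, 60.3 and 87.2 in WT and 132, 168 and 237 in Npc1-/- mice, with mutant replicate 3 highest as in *Cpeb1*. Its log2 fold change was 1.29 (adjusted p = 0.0528 by limma). *Sort1*, the sorting receptor sortilin, had 34.3, 32.7 and 40.0 in WT and 50.2, 54.5 and 67.6 in Npc1-/- mice, a log2 fold change of 0.67 (adjusted p = 0.0584 by limma). None of the 5 genes passed. The gene most like each other member was *Vamp4* for *Cpeb2* (0.990), *Fam32a* for *Cpeb3* (0.992), *Spsb1* for *Cpeb4* (0.983), *Tmod2* for *Fmr1* (0.997), *Rabac1* for *Fxr1* (0.999) and *Arfgap3* for *Fxr2* (0.993).

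Around the 7 genes, the machinery they work with was measured on 6 lists with 95 different genes tested. None of these genes was called by limma, against 0.813% of all genes. At an unadjusted p below 0.05 there were 15 (15.8%, 5 higher and 10 lower), against 22.2% of all genes. The median log2 fold change over the 95 genes was −0.06, against 0.01 over all genes tested. Groups did not overlap in 7 of the 95 genes with Npc1-/- above WT and in 13 with Npc1-/- below. The shares over all genes were 13.3% and 14.2%. For the counts of genes above 0 given below, 7780 of the 15245 genes tested were above 0.

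The machinery of cytoplasmic polyadenylation and the partners of CPEB1 (19 of 20 genes tested) had a median of −0.01, with 9 of 19 above 0 and 2 at an unadjusted p below 0.05, both higher. *Tacc3*, the mammalian relative of the frog CPEB partner maskin, had a scaled TPM of 4.42, 3.67 and 3.39 in WT and 6.27, 4.81 and 5.35 in Npc1-/- mice. Its groups did not overlap, and its log2 fold change was 0.47 (adjusted p = 0.119 by limma). *Pabpc1*, the main cytoplasmic poly(A)-binding protein, had 187, 174 and 187 in WT and 214, 218 and 269 in Npc1-/- mice, also without overlap (log2 fold change 0.35, adjusted p = 0.136 by limma). *Tent2*, the poly(A) polymerase that extends tails on CPEB targets, had a log2 fold change of 0.14 (95% interval −0.19 to 0.47) and the deadenylase *Parn* of 0.12 (−0.10 to 0.34). The lowest were the RNA helicase *Ddx6* (−0.17) and *Cpsf2*, a subunit of the cleavage and polyadenylation complex. The study used *Cpsf2* as the control gene to which its PCR values were normalized. Here *Cpsf2* had 7.10, 6.50 and 6.19 in WT and 6.69, 5.73 and 5.13 in Npc1-/- mice. These ranges overlap, and its log2 fold change was −0.17 (95% interval −0.46 to 0.13, adjusted p = 0.493 by limma).

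The deadenylation genes, which shorten poly(A) tails, had the lowest median of the 6 lists, at −0.13, with 3 of 20 genes above 0. *Btg2*, an antiproliferative factor that recruits the CCR4-NOT complex, had 11.7, 13.4 and 13.8 in WT and 6.37, 7.10 and 11.7 in Npc1-/- mice (log2 fold change −0.64, adjusted p = 0.140 by limma). Every mutant value lay below every WT value, though mutant replicate 3 came close. Without that mouse *Btg2* passed, with a log2 fold change of −0.90 (adjusted p = 0.0309 by limma). *Pum2*, a Pumilio protein that binds 3′ UTRs, had 47.7, 40.0 and 48.4 in WT and 39.1, 31.0 and 38.9 in Npc1-/- mice (log2 fold change −0.32, adjusted p = 0.199 by limma), again without overlap. The highest of the list were the CCR4-NOT subunits *Cnot10* (0.18) and *Cnot7* (0.09).

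Among the 15 partners of FMRP (median −0.05, 6 above 0), *Ybx1*, an abundant mRNA-packaging protein, had the largest positive value. It had a scaled TPM of 501, 569 and 537 in WT and 702, 661 and 759 in Npc1-/- mice, all above WT (log2 fold change 0.40, adjusted p = 0.10 by limma). *Stau2* followed at 0.18. The Argonaute *Ago2* (−0.39) and the helicase *Mov10* (−0.26) were lowest. In the list of cap-dependent initiation (17 of 18 genes tested, median −0.11, 6 above 0) the initiation factor *Eif4b* (0.62) and the S6 kinase *Rps6kb2* (0.48) were highest, and the kinases *Eef2k* (−0.31) and *Mknk2* (−0.28) were lowest. *Eif4b* rested on Npc1-/- replicate 3: it had 72.7, 85.6 and 97.0 in WT and 90.9, 118 and 206 in Npc1-/- mice. *Mknk2* was more even, with 17.3, 17.2 and 16.5 in WT and 14.9, 13.0 and 13.8 in Npc1-/- mice, which do not overlap, though it did not pass.

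**Figure D5:**
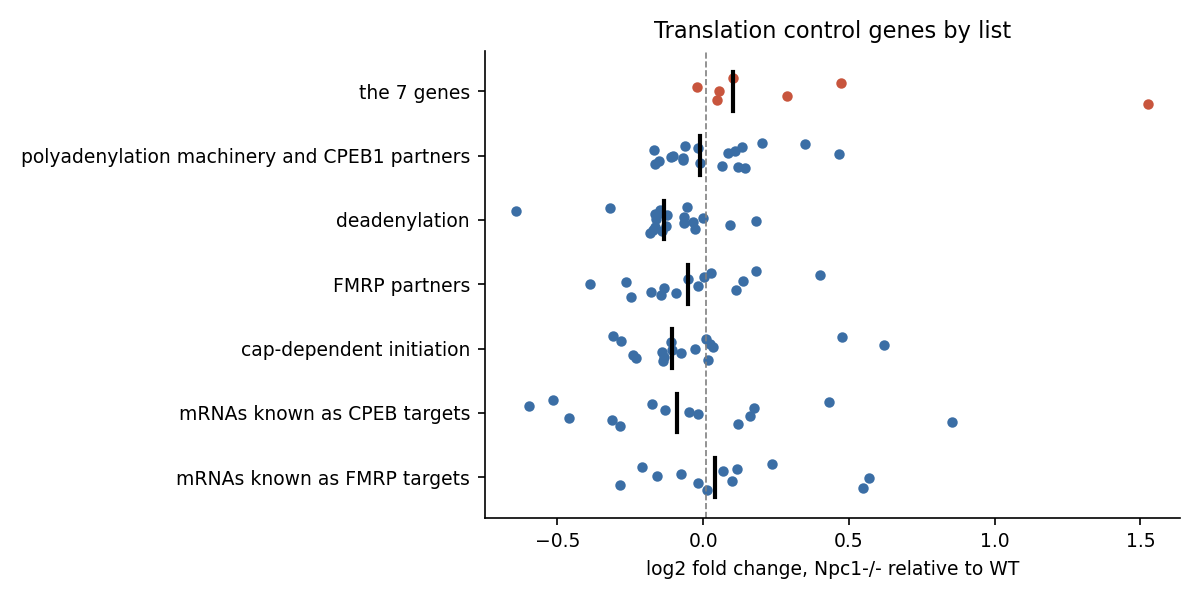
Log2 fold change of Npc1-/- relative to WT for each tested gene of the 7 genes (red) and of the 6 lists (blue), with list medians as black bars and the median of all genes tested, 0.01, as a dashed line. *Cpeb1*, at 1.53, is the farthest to the right, and the list medians lie between −0.13 and 0.04.

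The mRNAs that CPEB and FMRP are known to bind did not all differ in the same direction. Of 14 CPEB targets tested (median −0.09), 5 were above 0. At an unadjusted p below 0.05 by limma, 4 were lower and 1 was higher, against 11.6% and 10.6% of all genes. The cyclin *Ccnb1* had the highest log2 fold change (0.85, limma, adjusted p = 0.410), and its values ran from 0.327 to 3.48 scaled TPM in overlapping groups. The elongation factor *Eef2* came next (0.43). The growth factor receptor *Egfr* (−0.60) and the tight junction scaffold *Tjp1* (−0.52) were lowest. *Tjp1* had 68.7, 65.3 and 63.2 in WT and 45.9, 38.6 and 54.1 in Npc1-/- mice without overlap (adjusted p = 0.0800 by limma), and without Npc1-/- replicate 3 it passed with a log2 fold change of −0.64 (adjusted p = 0.0418 by limma). Of 12 FMRP targets (median 0.04), 7 were above 0, and at an unadjusted p below 0.05 by limma 1 was higher and 0 were lower. *Mbp* had a log2 fold change of 0.57, but with an interval from −1.52 to 2.65 its difference was smaller than its standard error of 0.89. *Arc*, an activity-induced synaptic gene, had 11.8, 9.51 and 11.7 in WT and 16.6, 15.3 and 16.9 in Npc1-/- mice, all above WT, and came close at 0.55 (limma, adjusted p = 0.0590). The lowest were *Camk2a* (−0.28) and *Shank3* (−0.21), whose groups overlapped. *Camk2a* and *Dlg4* stand on both lists of targets, and *Camk2a* is a neuronal marker as well.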

How the data were processed

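Per the labels and the study's methods, poly(A) libraries were sequenced as read pairs, trimmed, aligned to GRCm38 with STAR and assigned to genes; the methods name bbduk and featureCounts, and the submitters' processing notes list cutadapt 2.3, STAR 2.7.8a and RSEM 1.3.3. The authors deposited TPM and FPKM for 55492 genes, of which 55227 were found in GENCODE M21 (GRCm38). Strand use is not given in the sources used here. No gene counts were used, so the count model of the study, with condition as main factor, was replaced by limma 3.58.1 in R 4.3.3 (trend, two-sided) on log2(TPM / size factor + 0.5) of genes averaging 0.5 TPM or more, with genotype as the only factor and the thresholds of the methods (0.05 and 0.1). Size factors were medians of ratios over genes above 0 in every sample.

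Depth was estimated from FPKM steps of genes with a single transcript; between 77.3% and 81.9% of the low values lay within 0.15 of a whole fragment, against 30.0% by chance. The gene model and the depth estimate were tested on simulated data. The members and lists were chosen with earlier results of these data known. Named were the 7 genes, any list gene called, the 2 highest and 2 lowest of each list, markers, genes overlapping the 7, and those most like them by Pearson correlation. *Tent2*, *Parn*, *Gria1*, *Dlg4* were named after their values were seen. Exact permutation tests were not used for calls, since 3 against 3 cannot give p below 0.1. The labels name separate mice. The limma p-values weigh the genotype difference against the spread between mice, with each gene's variance moderated by that of all genes tested. Alternatives were other scalings, pseudocounts (0.1 and 1), filters (none and 5), variance models, a curve on longest transcript length (span 0.3), the replicate number as a block, chromosomes X, Y and MT left out, FPKM, and each mouse left out. Promoter windows came from RefSeq (GRCm38.p6). The other steps ran in Python 3.11.15 (pandas 2.3.3, numpy 2.4.6; plots by matplotlib 3.10.9). Protein sequences of the 7 genes were not analysed here.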

Additional observations from a re-analysis of the deposited data

How the results depend on the processing

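The number of genes called was 124, and it was 924 on TPM as deposited, 225 with quantile normalization, 192 with size factors from genes of mean TPM of at least 5, 447 when only those genes were tested, 21 with no filter, 42 without the variance trend and 2011 with the replicate block; with 1 mouse left out it ranged from 5 to 477, the highest without Npc1-/- replicate 3 and the lowest without Npc1-/- replicate 2. *Cpeb1* passed on TPM as deposited (log2 fold change 1.18), with quantile normalization (1.56, adjusted p = 0.0494 by limma), among genes of mean TPM of at least 5 (1.53, adjusted p = 0.0418) and with the block (1.53, adjusted p = 0.0119), but not with the other scalings, pseudocounts, filters or models; the cause was not tested. With 1 mouse left out it ranged from 1.23 to 1.74. On TPM as deposited, where all genes shift down, *Cpeb2* (−0.31), *Cpeb3* (−0.060), *Cpeb4* (−0.30) and *Fxr2* (−0.27) changed sign, and with the length curve *Fmr1* (0.028) did; none of these passed. With 1 mouse left out, *Cpeb2* ranged from −0.10 to 0.14, *Cpeb4* from −0.021 to 0.12 and *Fmr1* from −0.092 to 0.018.

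Of the list genes, 0 of which passed otherwise, the block gave 2 of the polyadenylation list (*Tacc3* and *Pabpc1*), 2 of the deadenylation list (*Btg2* and *Pum2*), 1 of the FMRP partners (*Ybx1*), 2 of the CPEB targets (*Eef2* and *Tjp1*) and 1 of the FMRP targets (*Arc*). TPM as deposited gave 1 of the deadenylation list (*Btg2*) and 2 of the CPEB targets (*Gria1* and *Tjp1*), mean TPM of at least 5 gave 1 of the FMRP targets (*Arc*), and leaving out 1 mouse gave from 0 to 1 in the deadenylation list and the CPEB targets. The samples share only a number across genotypes: deviations of same-numbered mice correlated at 0.414, 0.0602 and 0.326, each sample correlating best with its own number, a hint from the data only. With the block, *Fxr1* had an adjusted p of 0.0529 by limma. By Spearman's rho the gene most like *Cpeb1* had a correlation of 1. Low values keep 2 decimals, which limits overlapping genes near 0.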

Other observations

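Genes with a CPE (TTTTAT or TTTTAAT) in the last 100 bases of the 3′ UTR were set beside the rest, a description chosen after the other results were seen. There were 2541 such genes of 13439 tested with a 3′ UTR. Their median log2 fold change was −0.03, against 0.00 in the 10898 genes without the motif, and 0.708% of them were called by limma, against 0.826%. With the curve on transcript length removed the medians were 0.00 and 0.02.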
